A study of Mus musculus with 10 samples.

Results

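Chromatin loops near 7 interferon regulatory factor (IRF) genes, Irf2, Irf3, Irf4, Irf5, Irf7, Irf8 and Irf9, were examined in mouse bone marrow-derived macrophages (BMDMs). These are 7 of the 21728 protein-coding genes tested, and a loop was counted for a gene where at least 1 of its anchors, each a 10 kb bin of the genome, overlapped the 100 kb on either side of the gene's transcription start site (TSS). By this rule 226 of the 53424 loops of the control list lay near the 7 genes, a share of 0.423% (95% Wilson interval 0.371 to 0.482%). All cells came from wild-type female C57BL/6 mice aged 2 to 3 months, differentiated with M-CSF at 20 ng/ml, and treatments began on day 6. M0[CTR] cells were left untreated, M2[IL-4] cells were given 24 h of IL-4 (20 ng/ml), and M2p[pIL-4] cells had the same IL-4, were washed and then rested for 24 h. IFNG cells received interferon gamma at 20 ng/ml for 3 h with no IL-4 before it, and pIL-4 + IFNG cells were primed as M2p[pIL-4] and then given the same IFNG. The comparisons ask how IL-4, its washout and IFNG go with the contacts of these loci, and whether priming goes with another IFNG response.

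IRFs share a DNA-binding domain that reads repeats of the letters GAAA, the core of the interferon-stimulated response element (ISRE). IRF3, IRF5 and IRF7 act downstream of nucleic acid sensors and Toll-like receptors, IRF9 acts in the response to type I interferon, and IRF2 competes with the activator IRF1 for the same elements. IRF8 and IRF4 bind composite sites with partners such as PU.1 or BATF proteins, the former as a lineage factor of monocytes and macrophages and the latter as a factor of alternative, IL-4-driven polarization.

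The promoters of 3 of the genes are shown because bins that hold their TSS are loop anchors in what follows. All 3 are RefSeq sequences of build GRCm38.p6 on the plus strand, ending at the base before the GENCODE TSS, and capitals mark the matches to 3 motifs searched on both strands: the ISRE core GAAA NN GAAA (N, any base), the STAT element GAS (TTCNNNGAA) and the ETS-IRF composite GGAA NN GAAA.
Irf8, chr8:120736108-120736357: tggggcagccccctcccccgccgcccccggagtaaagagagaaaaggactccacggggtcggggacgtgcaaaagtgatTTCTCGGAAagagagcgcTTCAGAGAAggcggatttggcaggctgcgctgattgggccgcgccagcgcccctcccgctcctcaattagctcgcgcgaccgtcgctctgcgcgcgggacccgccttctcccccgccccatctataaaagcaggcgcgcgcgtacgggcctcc
Irf2, chr8:46739495-46739731: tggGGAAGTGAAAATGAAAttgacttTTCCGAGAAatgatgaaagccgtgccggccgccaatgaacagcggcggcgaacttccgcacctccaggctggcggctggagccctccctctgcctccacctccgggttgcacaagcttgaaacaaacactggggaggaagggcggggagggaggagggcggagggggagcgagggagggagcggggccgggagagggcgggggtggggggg
Irf4, chr13:30748983-30749225: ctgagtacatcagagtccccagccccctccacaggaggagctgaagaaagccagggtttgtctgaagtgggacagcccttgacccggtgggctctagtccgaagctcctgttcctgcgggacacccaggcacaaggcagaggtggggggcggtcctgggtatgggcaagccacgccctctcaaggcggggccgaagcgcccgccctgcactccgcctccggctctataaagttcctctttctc

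The Irf8 promoter held 2 GAS matches. The Irf2 promoter held a match to each motif, with the composite and the ISRE core overlapping. No match was found in the Irf4 letters, nor in the windows of Irf3, Irf5 and Irf7, which were 193 to 250 bases long. Of 32851 RefSeq promoter windows of 250 bases, 2.98% held the ISRE core, 7.02% GAS and 2.30% the composite. All 7 genes had a RefSeq promoter. The windows of Irf9 began inside the GENCODE gene, and no match was found in them.

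The bins used most often as anchors near Irf8, Irf2 and Irf4 are shown by their matches to the 14-base CTCF consensus with at most 1 mismatch, since CTCF, the insulator protein, commonly bounds loops. Each line gives 40 bases read 5′ to 3′ on the strand named, from GRCm38.p6, with the 14 matching letters in capitals.
Irf8 bin at -60 kb, chr8:120678597-120678636, plus strand: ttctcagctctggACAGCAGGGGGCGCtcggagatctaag
Irf8 bin at -50 kb, chr8:120683745-120683784, plus strand: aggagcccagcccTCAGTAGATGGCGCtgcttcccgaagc
Irf8 bin at 60 kb, chr8:120796439-120796478, minus strand: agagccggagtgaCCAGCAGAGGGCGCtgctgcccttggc
Irf2 bin at 200 kb, chr8:46935082-46935121, plus strand: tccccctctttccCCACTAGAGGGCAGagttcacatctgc
Irf2 bin at 210 kb, chr8:46946358-46946397, minus strand: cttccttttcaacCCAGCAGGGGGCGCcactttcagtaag
Irf4 bin at -160 kb, chr13:30585486-30585525, minus strand: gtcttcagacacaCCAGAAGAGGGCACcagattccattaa
Irf4 bin at -140 kb, chr13:30604162-30604201, plus strand: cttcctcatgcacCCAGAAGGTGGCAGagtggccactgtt

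Distances run from the TSS bin towards higher coordinates. The Irf8 match at 60 kb and both Irf2 matches carried 0 mismatches. The Irf8 matches at -60 and -50 kb pointed towards the match at 60 kb, and it pointed back at them. The 14 letters at Irf4 -160 kb were the second most frequent of the 1892 forms matched, with 3723 of 64456 matches in the genome, and they recurred in bins of 5 of the genes. Of the 204 anchor bins near the 7 genes 43.1% held a match, against 31.4% of all anchor bins and 21.4% of all bins. By gene the share was 54.2% at Irf8, 52.9% at Irf3, 48.8% at Irf7, 46.7% at Irf5 and 38.5% at Irf9. It was 33.3% at Irf2, near that of all anchor bins, and 28.6% at Irf4, below it. These matches are descriptions of letters, and binding was not measured here.

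Each of the 5 groups has 2 Hi-C replicates but a single loop list, with 53424 to 67728 loops and 2174945 to 2787117 contacts. Contacts are whole numbers of read pairs joining 2 bins, from 5 to 299 per loop, with a median of 32 in all 5 lists. There is no replicate check: every interval and p below covers counting error, compares lists and not conditions, and treats read pairs as independent molecules. A bin pair missing from a list was not called there, which does not mean that it had no contacts. The M0[CTR] list enters 3 of the 6 comparisons, so these are not independent. Hi-C holds no expression, so the labelled cell type could not be checked against markers.

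Loops near the 7 genes numbered 226 in M0[CTR] cells, 237 in M2[IL-4] cells, 272 in M2p[pIL-4] cells, 230 in IFNG cells and 269 in pIL-4 + IFNG cells, from 0.401 to 0.423% of each list. Scaled by list length, the total differed most, among the 6 comparisons, between M2p[pIL-4] and M0[CTR] (log2 ratio -0.07, 95% exact binomial interval -0.33 to 0.19). The 7 loci thus followed the length of the lists as a group. Irf7 had the highest mean, 51.8 loops per list, followed by Irf3 with 46.0, Irf2 with 45.8 and Irf8 with 44.8. The counting intervals of these 4 overlapped in every list. Irf9 had a mean of 37.2, Irf4 17.2 and Irf5 4.0, where the median gene had 6 to 8. Gene density differed: the window held the start sites of 20 coding genes at Irf9, 13 at Irf7 and 12 at Irf3 but 2 at Irf4 and 1 at Irf2, so a loop in a window need not belong to the IRF gene.

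**Figure D1:**
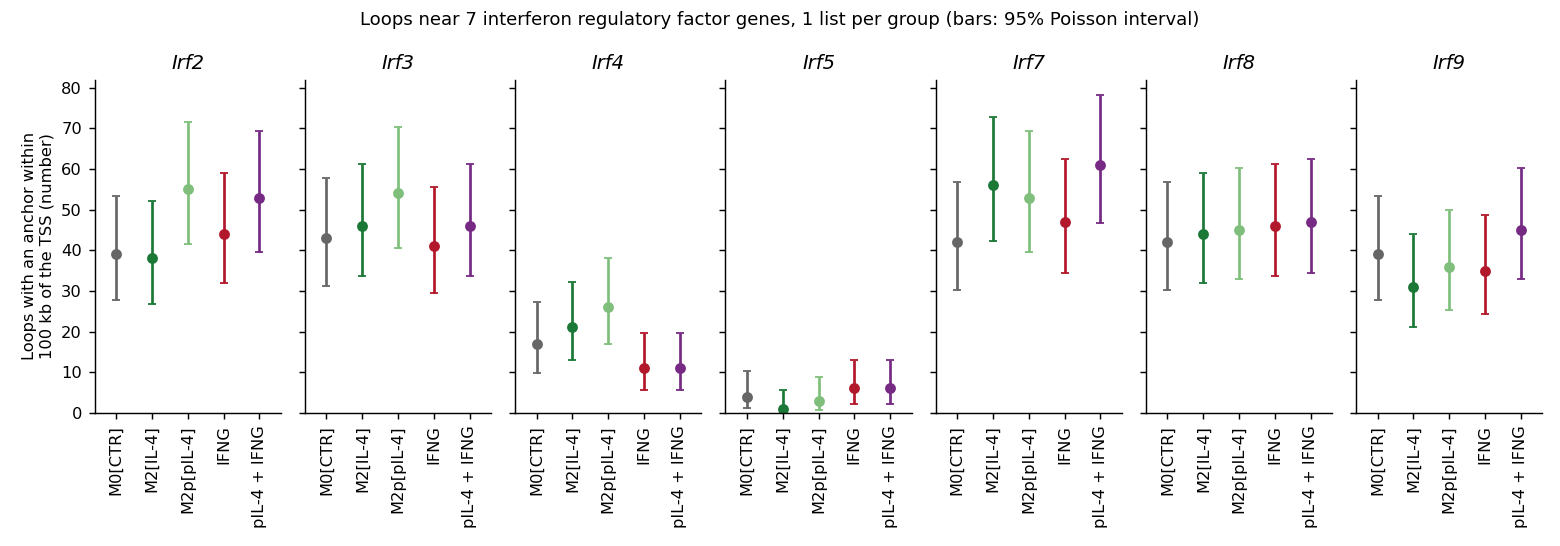
Number of loops with an anchor within 100 kb of the TSS (vertical axis) for each gene in the 5 lists (horizontal axis), as deposited and not scaled by list length; points are counts and bars 95% Poisson intervals. Irf4 runs from 11 to 26 loops and Irf8 only from 42 to 47.

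A gene was counted as changed in loop number where its scaled number, with 1 loop added to each side, differed by at least 1.5-fold, and this was asked only of the 9735 genes with a mean of at least 10 loops. Irf5 fell short of that mean, so 6 of the 7 genes entered. Between IFNG and M0[CTR] 0 of the 6 were higher and 1, Irf4, was lower, where 6.80% of all genes were higher, 6.52% lower and 13.3% changed either way. Between pIL-4 + IFNG and M2p[pIL-4] again 0 were higher and 1, Irf4, was lower, where 5.92% of all genes were higher, 4.22% lower and 10.1% changed. The remaining 4 comparisons gave 0 of 6 in either direction. Of all genes, 6.16% were higher and 5.35% lower for M2[IL-4] against M0[CTR] (11.5% in all), and 4.12% and 3.65% for M2p[pIL-4] against M0[CTR] (7.77%). For M2p[pIL-4] against M2[IL-4] the shares were 4.73% and 4.01% (8.73%), and for pIL-4 + IFNG against IFNG 5.15% and 2.73% (7.88%). With 6 genes, 1 or 0 changed is near what these shares give. The median log2 ratio of the 6 genes lay between -0.07 and 0.02 over the comparisons, and that of all genes between -0.04 and 0.02.

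Irf4 (ENSMUSG00000021356.10, chr13:30749226-30766976, plus strand), the polarization factor, had 17 loops in M0[CTR] cells, 21 in M2[IL-4] cells, 26 in M2p[pIL-4] cells, 11 in IFNG cells and 11 in pIL-4 + IFNG cells. Both lists of IFNG-treated cells were thus lowest and both lists of IL-4-treated cells without IFNG highest, and only the 26 of M2p[pIL-4] against the 11 of pIL-4 + IFNG gave an interval that left out 0. For that pair the log2 ratio was -1.15, or -1.23 without the added loop (95% interval -2.39 to -0.16), the 25th lowest of 9735 genes. For IFNG against M0[CTR] the log2 ratio was -0.63, or -0.67 without the added loop (-1.91 to 0.51). The 2 ratios rest on how loops are counted: with bin pairs that touch merged, pIL-4 + IFNG and M2p[pIL-4] had 8 loops each (log2 ratio 0.0098), while IFNG and M0[CTR] had 3 and 9 (-1.36). With 5 loops added the IFNG ratio was -0.50, short of 1.5-fold.

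Most loops in the Irf4 window had 1 anchor in a stretch 130 to 200 kb before the gene, with partners before Irf4, in it or beyond it towards Exoc2, a gene of the exocyst complex. The bin most used was that at -140 kb (4, 7, 5, 2 and 3 loops in the order of the groups above). Closer to the gene the order of the lists differed, as seen in a window of 25 kb that was singled out after its values were seen. There M0[CTR] had 1 loop, M2[IL-4] had 8, M2p[pIL-4] had 6, IFNG had 2 and pIL-4 + IFNG had 3. Both IL-4 lists without IFNG were highest, and M0[CTR] was lowest. The log2 ratio to M0[CTR] was 2.04 for M2[IL-4], a value that 57 of the 9735 genes reached, and 1.47 for M2p[pIL-4], reached by 175. At this window 14.1% and 13.1% of genes were at least 1.5-fold higher in these 2 comparisons, and IFNG against M0[CTR] gave 0.54, opposite in sign to the wider window.

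The bin of the Irf4 TSS was an anchor only in the 2 IL-4 lists without IFNG. In M2[IL-4] it was joined to the bin at -150 kb with 30 contacts and to the bin at -140 kb, shown above by its CTCF match, with 34. In M2p[pIL-4] it was joined to the bin at -130 kb with 31 contacts. M0[CTR] had no loop within 25 kb of any of these 3 at both anchors, while the lowest contacts it called at these spans were 13 to 17. IFNG had a loop that close for all 3 and pIL-4 + IFNG for 2, so the TSS bin alone does not set these lists apart. The next bin, inside Irf4, was joined to that at -140 kb in M2[IL-4] with 39 contacts, in M2p[pIL-4] with 35 and in IFNG with 42. That pair was not called in M0[CTR] or pIL-4 + IFNG, but pIL-4 + IFNG, unlike M0[CTR], had a loop within 25 kb at both anchors. The bin inside Irf4 was joined to that at -150 kb in M2[IL-4] only, with 40 contacts. This was the strongest M2[IL-4] loop without a match in M0[CTR], though the other 3 treated lists had a loop within 25 kb. Thus 8 of 21 M2[IL-4] loops near Irf4 had no M0[CTR] loop within 25 kb at both anchors (38.1%), against 13.6% of the whole list, 4 of 26 in M2p[pIL-4] and 1 of 11 in each IFNG list. Bins overlapping the gene carried 1 M0[CTR] loop, 5 of M2[IL-4], 4 of M2p[pIL-4] and 2 of each IFNG list.

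No bin pair near Irf4 was called in all 5 lists, and 35 of its 57 were called in 1 list. The strongest M0[CTR] loop without a treated match joined Dusp22, a phosphatase gene, to Exoc2 (170 kb apart, 28 contacts). In M2p[pIL-4] the strongest unmatched loop joined Dusp22 to the bin before the Irf4 TSS bin with 51 contacts, and in pIL-4 + IFNG the strongest joined -140 kb to Dusp22 with 37, as M2[IL-4] did with 40. With so few shared pairs, contacts at Irf4 could be compared over 1 to 7 bin pairs only, and the widest interval of the 7 genes in the 6 comparisons was that of Irf4 (pIL-4 + IFNG against IFNG, log2 ratio -0.24, -1.17 to 0.68).

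**Figure D2:**
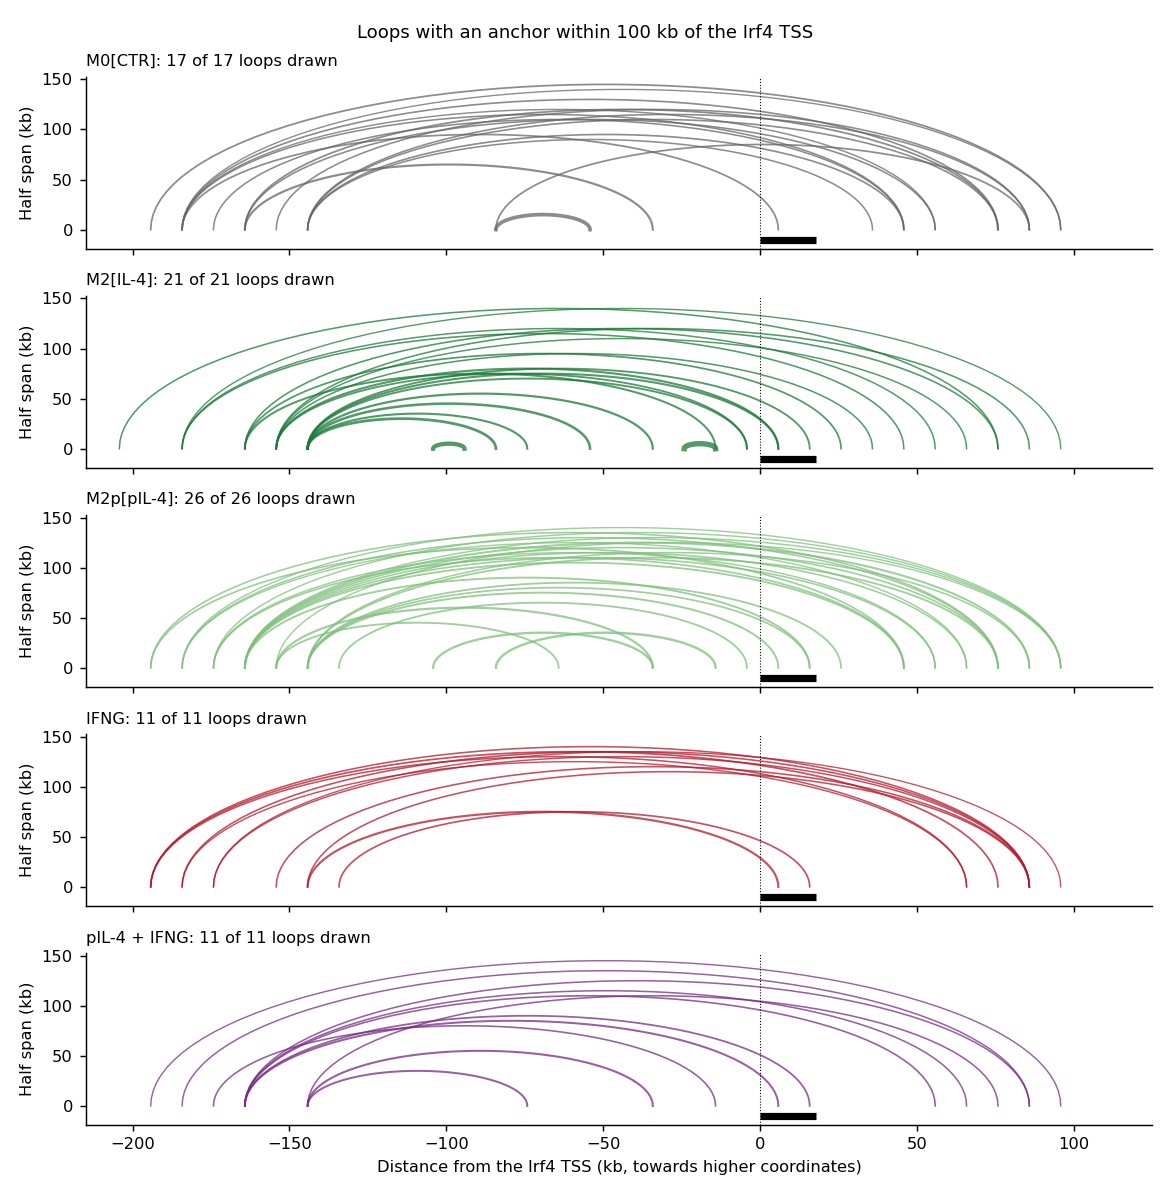
Loops near Irf4 in each list as arcs between anchor centres, by distance from the TSS in kb (horizontal axis) and arc height, which grows with the span, in kb (vertical axis), with wider lines for more contacts and a black bar for the gene. Bins that overlap the gene carry 1 arc of M0[CTR], 5 of M2[IL-4] and 4 of M2p[pIL-4]. Of these, 2 M2[IL-4] arcs and 1 M2p[pIL-4] arc end at the centre of the TSS bin, which lies just before the bar.

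Irf8 (ENSMUSG00000041515.10, chr8:120736358-120756694, plus strand), the lineage factor, had 42 loops in M0[CTR] cells, 44 in M2[IL-4] cells, 45 in M2p[pIL-4] cells, 46 in IFNG cells and 47 in pIL-4 + IFNG cells. The numbers differed by far less than their counting intervals, and the scaled ratios lay between -0.25 and 0.09. Of its 73 bin pairs 20 were called in all 5 lists (27.4%, against 9.18% of all 153264 bin pairs), the highest share among the 7 genes. None of its M2[IL-4], M2p[pIL-4] or pIL-4 + IFNG loops, and 1 of 46 in IFNG, lacked an M0[CTR] loop within 25 kb at both anchors. The exception was a long, weak loop across 610 kb with 11 contacts.

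The Irf8 loops converged on the bins at -50 kb, with 11, 12, 8, 12 and 10 loops in the order of the groups, and at 60 kb, with 12, 9, 11, 11 and 10. These are the bins whose facing CTCF matches are shown above, and both lie in Gm20388, a long annotated gene that overlaps the whole stretch. The strongest loop called in all lists joined -60 kb, at the edge of Cox4i1, a respiratory chain subunit gene, to 60 kb, with 79, 76, 86, 80 and 67 contacts. The Irf8 TSS bin was itself joined in every list to the bin at -50 kb, with 66, 84, 73, 81 and 88 contacts. It was joined in every list to the bin at -40 kb, with 64, 76, 87, 86 and 106 contacts. M0[CTR] was the lowest list in both, and pIL-4 + IFNG the highest, but these lists were not compared with each other. Neither pair passed the exact binomial test per bin pair in the 6 comparisons run (adjusted p = 1 in all). The TSS bin was joined to 60 kb in 4 lists, with 50, 53, 69 and 61 contacts. It was not called there in IFNG, which had a loop within 25 kb at both anchors.

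The loop that closed the Irf8 stretch, from -50 to 60 kb, had 100 contacts in M0[CTR] cells, 79 in M2[IL-4] cells, 84 in M2p[pIL-4] cells, 63 in IFNG cells and 64 in pIL-4 + IFNG cells. M0[CTR] was highest and both IFNG lists lowest. IFNG stood to M0[CTR] at a log2 ratio of -0.71 (95% interval -1.19 to -0.24, exact binomial unadjusted p = 0.00218), which did not pass over the 25079 bin pairs tested (adjusted p = 1). The pair beside it, from -50 to 50 kb, had 74, 74, 73, 50 and 47 contacts. Summed over 30 shared bin pairs, Irf8 contacts were 2070 in IFNG and 2156 in M0[CTR] (log2 ratio -0.10, -0.19 to -0.01, exact binomial p = 0.0219, adjusted p = 1).

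**Figure D3:**
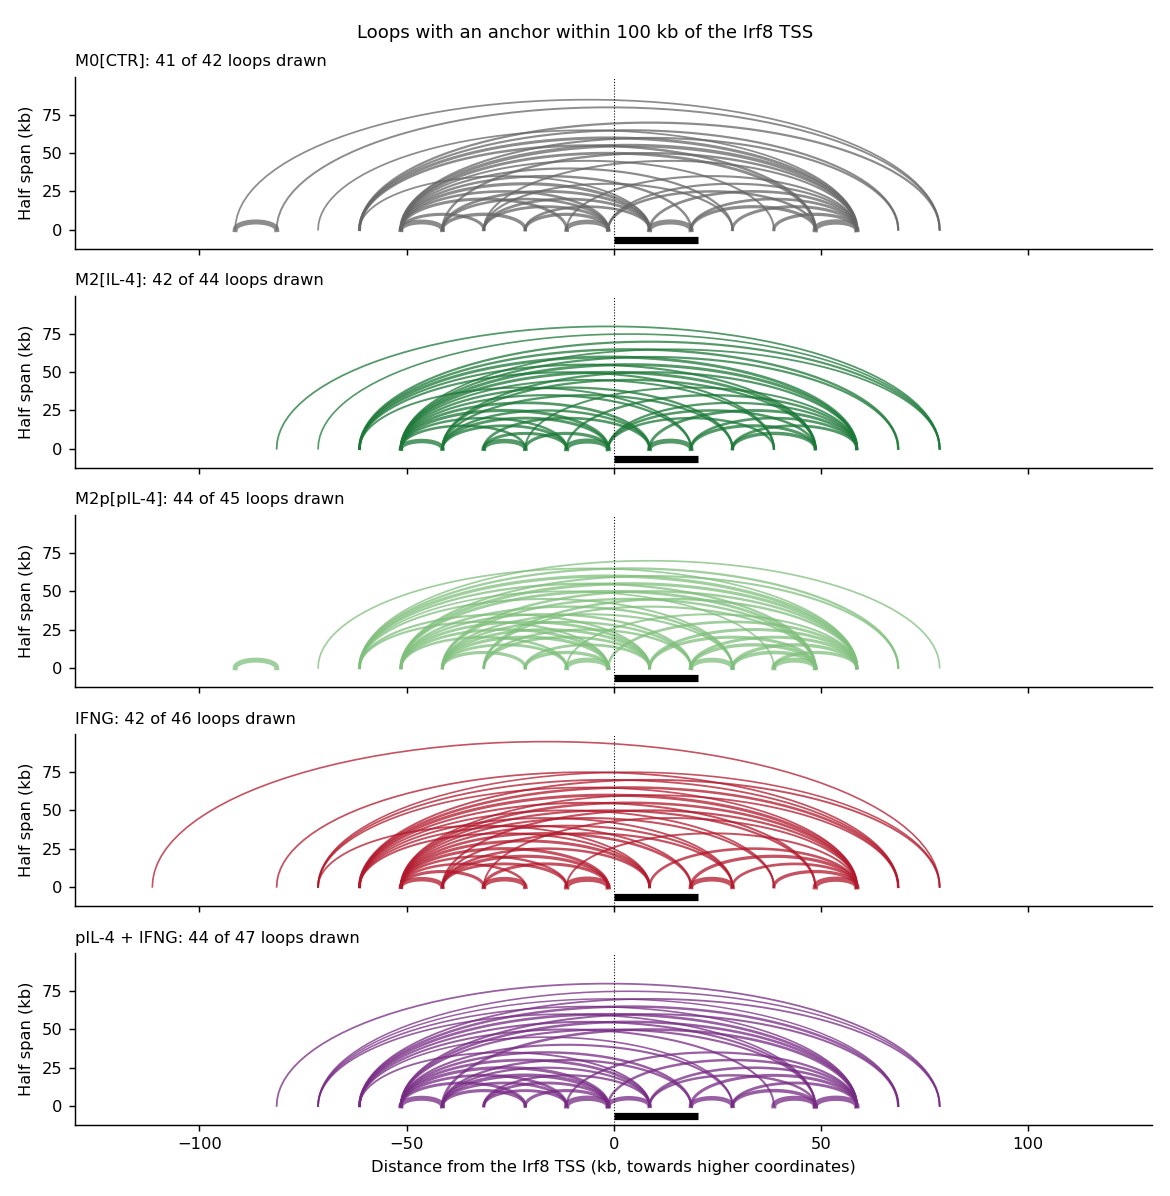
Loops near Irf8 in each list, drawn as for Irf4 and limited to anchors within 130 kb of the TSS, which leaves out 1 to 4 loops per list. In every list arcs gather at about -50 and 60 kb and span the gene (black bar).

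Irf2 (ENSMUSG00000031627.9, chr8:46739732-46847458, plus strand), the competitor of IRF1, had 39 loops in M0[CTR] cells, 38 in M2[IL-4] cells, 55 in M2p[pIL-4] cells, 44 in IFNG cells and 53 in pIL-4 + IFNG cells. The 2 lists from washed-out cells were highest, as they were in list length, and the scaled ratios lay between -0.16 and 0.30. Its TSS is the only coding start site in the window, and its main partners lay beyond its end in bins that overlap no coding gene, where the bin at 210 kb carried 10, 10, 15, 10 and 14 loops. The loop from the TSS bin to that bin was called in every list, with 54, 55, 52, 52 and 48 contacts. By mean strength over the lists it was the strongest of those called in all lists, though not the strongest in each list. The loop from the TSS bin to 200 kb had 37, 49, 36, 42 and 50 contacts. The first pair was nearly level across lists, and neither passed in any comparison. Bins overlapping the gene body carried 15, 16, 32, 16 and 30 loops. Loops within or from the gene body were thus most numerous in M2p[pIL-4] and pIL-4 + IFNG, the 2 longest lists. The counts were not scaled by list length or tested, and no share over the bodies of all genes was computed. These counts take in the last bin of the gene, which lies outside the window, so they are not a part of the window's loops. With loops of at least 20 contacts only, M2p[pIL-4] held 48 and M2[IL-4] 27, a log2 ratio of 0.59, at a setting for which no share of all genes was computed. Loops without an M0[CTR] match within 25 kb were 5 of 38 in M2[IL-4], the strongest from the TSS bin to 150 kb with 37 contacts, and 6 of 53 in pIL-4 + IFNG, the strongest from the TSS bin to 160 kb with 31. In M2p[pIL-4] they were 5 of 55, led by a loop into the gene body with 36 contacts, and in IFNG 2 of 44, led by a loop of 30 kb within the gene with 64. M0[CTR] had 2 of 39 without a treated match, the stronger within the gene body with 53.

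Among the IRFs downstream of sensors, Irf3 (ENSMUSG00000003184.15, chr7:44997648-45002848, plus strand) had 43, 46, 54, 41 and 46 loops in the order of the groups. Scaled ratios lay between -0.21 and 0.01. Its loops were short, with a median span of 30 to 40 kb, in a gene-dense stretch. The TSS bin, which also holds the start of Bcl2l12, was joined to Scaf1 and Rras 20 kb away in M0[CTR] with 72 contacts, M2[IL-4] with 75 and IFNG with 82. It was joined to the adjacent bin in M2[IL-4] with 98 contacts, M2p[pIL-4] with 102 and pIL-4 + IFNG with 99. A TSS-bin loop was thus called in every list, at partners 10 kb apart. Unmatched in M0[CTR] were 2 of 46 M2[IL-4] loops, the stronger from Irf3 to Ruvbl2 and Gys1 (17 contacts, 430 kb), and 2 of 54 M2p[pIL-4] loops, the stronger from Prmt1, an arginine methyltransferase gene, to Prrg2 and Nosip (50 contacts).

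Irf7 (ENSMUSG00000025498.15, chr7:141262706-141266481, minus strand), the IRF that amplifies type I interferon, had 42 loops in M0[CTR] cells, 56 in M2[IL-4] cells, 53 in M2p[pIL-4] cells, 47 in IFNG cells and 61 in pIL-4 + IFNG cells. M0[CTR] was lowest, but the scaled ratios lay between -0.30 and 0.28. The pair with the strongest loop of the TSS bin, 100 kb away in Eps8l2, an actin regulator gene, was called in M2[IL-4] with 52 contacts, in IFNG with 61 and in pIL-4 + IFNG with 50. In M0[CTR] the TSS bin was joined to the bin before it, also in Eps8l2, with 50 contacts. In M2p[pIL-4] it was joined to the next Eps8l2 bin inward with 42. An Eps8l2 bin was thus a partner in every list, within 20 kb. The TSS bin was joined to Deaf1, a transcription factor gene 50 kb away, in the 4 treated lists, with 56, 54, 68 and 51 contacts, and was not called there in M0[CTR], which had a loop within 25 kb. It was joined to Taldo1, a pentose phosphate enzyme gene, in M0[CTR] alone, with 35 contacts, and no treated list had a match within 25 kb.

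The strongest Irf7-window loop called in all lists, from Phrf1 beside Irf7 to Eps8l2, had 71, 62, 75, 61 and 58 contacts. A loop from Nlrp6, an inflammasome gene, to Hras was called only in the 2 IFNG lists, with 26 contacts in IFNG and 29 in pIL-4 + IFNG, but M2[IL-4] had a loop within 25 kb at both anchors. M0[CTR] and M2p[pIL-4] had none, with lowest called contacts at this span of 12. The loop lies 80 kb from the Irf7 TSS bin at its nearer end. The strongest loop without an M0[CTR] match ran in M2[IL-4] from Ptdss2 to Eps8l2 with 30 contacts, in M2p[pIL-4] from Pkp3 and Sigirr to Eps8l2 with 33 and in IFNG from Lmntd2 and Rassf7 to Taldo1 with 36. Of the 121 Irf7 bin pairs, 9 were called in all 5 lists (7.44%).

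Irf5 (ENSMUSG00000029771.12, chr6:29526625-29541871, plus strand), the IRF of Toll-like receptor signalling, had 4, 1, 3, 6 and 6 loops. Its Poisson intervals overlapped in all lists, from 0.0253 at the lowest to 13.1 at the highest. The loop called in all lists joined the bin before the TSS bin to the gene body 20 kb away, with 91, 95, 98, 87 and 87 contacts. The TSS bin was an anchor in pIL-4 + IFNG alone, joined to the adjacent bin with 158 contacts, and all 4 other lists had a loop within 25 kb at both anchors. The 1 unmatched loop, in M2p[pIL-4], ran from Kcp across 160 kb with 30 contacts.

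Irf9 (ENSMUSG00000002325.15, chr14:55603571-55610030, plus strand), the IRF of the type I interferon response, had 39 loops in M0[CTR] cells, 31 in M2[IL-4] cells, 36 in M2p[pIL-4] cells, 35 in IFNG cells and 45 in pIL-4 + IFNG cells. The 2 IL-4 lists without IFNG were lowest when scaled by list length (log2 ratio to M0[CTR] -0.45 in both), within counting error. At the shared bin pairs its contacts were lower too. Over 22 pairs they summed to 1436 in M2[IL-4] and 1601 in M0[CTR] (log2 ratio -0.16, 95% exact binomial interval -0.26 to -0.05, p = 0.00309, adjusted p = 0.453). Over 24 pairs they summed to 1507 in M2p[pIL-4] and 1668 in M0[CTR] (log2 ratio -0.19, -0.29 to -0.09, exact binomial p = 0.000273, adjusted p = 0.893). Neither passed over all genes, and both share the M0[CTR] list.

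The strongest Irf9-window loop called in all lists, from Tinf2, a telomere protein gene, to Dhrs1 and Nop9, had 108 contacts in M0[CTR] cells, 84 in M2[IL-4] cells, 76 in M2p[pIL-4] cells, 94 in IFNG cells and 67 in pIL-4 + IFNG cells. M0[CTR] was highest and the washed-out lists were lowest. The pair of adjacent bins at -40 and -30 kb had 196, 163, 156, 205 and 178 contacts. The Irf9 TSS bin was joined to the neighbouring bin of Psme2, a proteasome activator gene, and Rnf31, a ubiquitin ligase gene, in M2p[pIL-4] with 174 contacts, IFNG with 168 and pIL-4 + IFNG with 153. That pair was not called in M0[CTR] or M2[IL-4], where the Irf9 TSS bin was no anchor at all. Both of these lists had a loop within 25 kb at both anchors. The 1 treated loop without an M0[CTR] match, in M2p[pIL-4], joined that Psme2 bin to Rabggta, a prenyl transferase gene, with 37 contacts.

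The test of contacts per gene, an exact two-sided binomial on the contacts at bin pairs called in both lists with Benjamini-Hochberg adjustment over all genes, called 0 of 7 IRF genes in each comparison. Of all genes it called 0.0151% for M2[IL-4] against M0[CTR], 0.0913% for IFNG against M0[CTR], 0.0216% for pIL-4 + IFNG against M2p[pIL-4] and 0% in the other 3 comparisons. At an unadjusted p under 0.05 it called 1 of 7 in 4 comparisons (Irf9 in both against M0[CTR] after IL-4 and in pIL-4 + IFNG against IFNG, Irf8 in IFNG against M0[CTR]) and 0 in the other 2, against 4.61, 3.12, 2.43, 3.86, 3.57 and 2.41% of all genes in the order of the comparisons (M2[IL-4] and M2p[pIL-4] against M0[CTR], M2p[pIL-4] against M2[IL-4], IFNG against M0[CTR], pIL-4 + IFNG against M2p[pIL-4] and against IFNG). The third Irf9 value was small (log2 ratio -0.09, -0.17 to -0.00, exact binomial p = 0.0384, adjusted p = 1). For Irf2, Irf3, Irf7, Irf8 and Irf9 every interval lay between -0.29 and 0.24, so that larger differences at shared pairs were outside these counting intervals, while those of Irf4 and Irf5 were wider, up to -1.17 to 0.68. Tested pair by pair, 0 of the 124 to 165 bin pairs per comparison passed the exact binomial test. Of all bin pairs 0.00797% passed for IFNG against M0[CTR] and 0% in the other comparisons. At an unadjusted p under 0.05 it called 1, 4, 3, 3, 3 and 1 pairs near the 7 genes, and of all bin pairs 1.99, 1.79, 1.73, 1.89, 1.97 and 1.75%, in the same order.

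**Figure D4:**
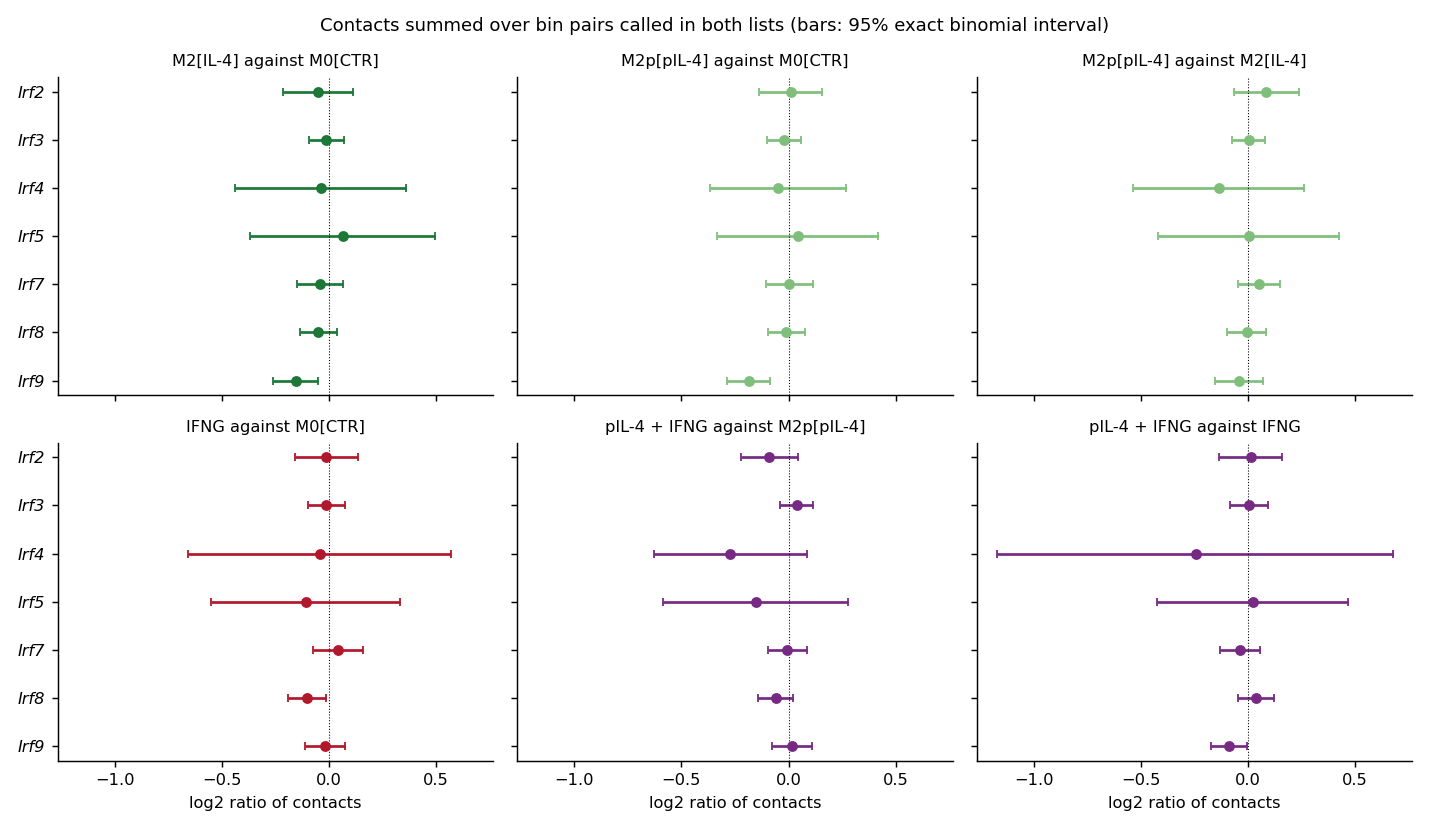
log2 ratio of contacts (horizontal axis) summed over bin pairs called in both lists near each gene, for the 6 comparisons, with 95% exact binomial intervals as bars. Most points lie near 0, those of Irf9 in the first 2 panels lie at -0.16 and -0.19, and the bars of Irf4 and Irf5 are the widest.

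Whether IL-4 priming went with another IFNG effect was asked by dividing the pIL-4 + IFNG over M2p[pIL-4] ratio by the IFNG over M0[CTR] ratio, at bin pairs called in all 4 lists, with a normal test on the log scale and Poisson variances. Irf4 had no such pair, and 0 of the other 6 genes passed after adjustment, as did 0 of 11787 genes (0%). At an unadjusted p under 0.05 it called 0 of the 6 and 2.89% of all genes. The values with 95% intervals were -0.03 for Irf2 (-0.29 to 0.23), 0.01 for Irf3 (-0.13 to 0.16), -0.10 for Irf7 (-0.33 to 0.12), 0.07 for Irf8 (-0.08 to 0.21) and 0.09 for Irf9 (-0.07 to 0.25). Irf5 rested on 1 bin pair (-0.05, -0.64 to 0.55).

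The genes differed in how far the lists shared their bin pairs. Shares called in all 5 lists were 27.4% at Irf8, 22.2% at Irf9, 16.1% at Irf3, 12.5% at Irf2, 7.69% at Irf5, 7.44% at Irf7 and 0% at Irf4. Over the 7 genes it was 13.7% of 524 bin pairs, against 9.18% of all. Pairs called by 1 list made up from 20.5% at Irf8 to 69.2% at Irf5, against 55.5% of all pairs. Treated loops near the 7 genes that lacked an M0[CTR] loop within 25 kb at both anchors made up 7.59% of the M2[IL-4] loops, 5.88% of those of M2p[pIL-4], 3.48% of those of IFNG and 3.72% of those of pIL-4 + IFNG. In the whole lists these shares were 13.6, 14.1, 12.98 and 15.1%. Irf4 alone gave 8 of the 18 such M2[IL-4] loops.

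**Figure D5:**
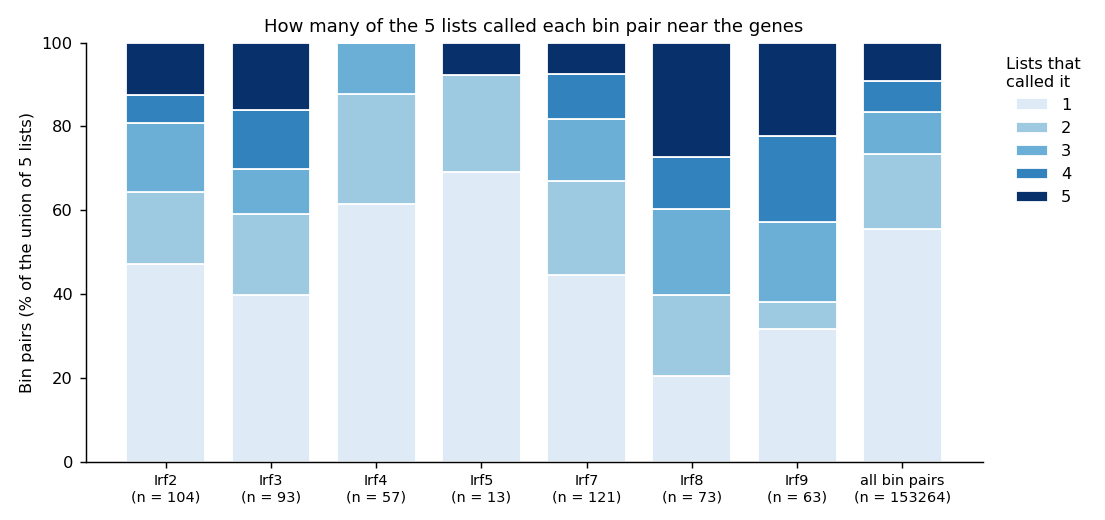
Share of each gene's bin pairs (vertical axis, % of the union of the 5 lists) called by 1 to 5 lists (shades), with the number of bin pairs under each gene and all bin pairs at the right. The darkest part, called by all 5 lists, is largest at Irf8 and absent at Irf4.

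Of 30 genes of interferon sensing and signalling fixed for comparison, 23 had a mean of at least 10 loops. Of these 0 were higher and 1 lower for M2[IL-4] against M0[CTR], 1 and 1 for M2p[pIL-4] against M0[CTR], and 2 and 0 for M2p[pIL-4] against M2[IL-4]. With IFNG the counts were 1 and 1 against M0[CTR], 0 and 2 for pIL-4 + IFNG against M2p[pIL-4], and 0 and 1 against IFNG alone. Their median log2 ratio lay between -0.08 and 0.06 over the 6 comparisons. Of all genes 7.77 to 13.3% changed either way in these comparisons, as given above, and the counts among the 23 are near or below these shares. Isg15, an interferon-induced ubiquitin-like protein, had 5 loops in M2[IL-4], fewer than the 12 of M0[CTR] and the 16 of M2p[pIL-4]. Jak1, a kinase of interferon and IL-4 receptors, had 8, 9, 18, 12 and 9 loops over the 5 groups and made up 4 of the changes. Batf3, a partner of IRF8, had 49 loops in M0[CTR] and 29 in IFNG (log2 ratio -0.78, -0.80 without the added loop, interval -1.51 to -0.11). Jak2, the kinase of the IFNG receptor, was higher in IFNG with 28 loops against 17, Ifngr1, a chain of that receptor, was lower in pIL-4 + IFNG with 17 against 28 in M2p[pIL-4], and Irf2bp1, a corepressor that binds IRF2, was lower in M2p[pIL-4] with 9 against 11 in M0[CTR]. The interval left out 0 for Batf3 alone, and it spanned 0 for every change of Jak1, Isg15, Jak2 (-0.24 to 1.64), Ifngr1 (-1.67 to 0.22) and Irf2bp1 (-2.08 to 0.78).

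Of all genes 0.0913% passed the contact test for IFNG against M0[CTR] and 0.0216% for pIL-4 + IFNG against M2p[pIL-4]. Of the genes fixed for comparison 1 of 27 tested and 1 of 28 tested passed, in both cases Irf1, the activator IRF that is not among the 7. Its contacts fell from 541 in M0[CTR] to 368 in IFNG over 8 bin pairs (log2 ratio -0.60, -0.79 to -0.41, exact binomial adjusted p = 2.63e-06) and from 724 in M2p[pIL-4] to 556 in pIL-4 + IFNG over 13 (log2 ratio -0.36, -0.52 to -0.20, exact binomial adjusted p = 0.0399). None of the 7 genes passed either test, and whether they differ from Irf1 was not tested.

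The loop numbers most like those of each gene over the 5 lists, by the root mean square difference of centred log2 values among genes on other chromosomes or over 1 Mb away, were those of Fbrs and Furin for Irf2 (0.02 for both), Prkar2b and Peak1 for Irf3 (0.02 and 0.03), Thrsp and Paqr6 for Irf7 (0.02 and 0.03), Sst and Rtp2 for Irf8 (0.02 for both) and Commd7 and Dnmt3b for Irf9 (0.02 for both). For Irf4 they were Acta1 and Nostrin (0.06 and 0.08), and only these 2 of 9726 genes lay within 0.1 of its pattern, against 248 to 809 for the other 5 genes. Acta1 had 18, 24, 27, 12 and 13 loops in the order of the groups. Commd7 and Dnmt3b, both on chromosome 2, had the same loop numbers in every list, and Sst and Rtp2 both lie on chromosome 16. Whether the genes of such a pair share loops was not checked, since only genes near the IRF gene were left out. All these likenesses are descriptions over 5 lists.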

How the data were processed

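Hi-C was made by the authors from 2 replicates in each of 5 groups, with MboI digestion and biotin fill-in. The submitters' processing notes name FastQC, Bowtie2, HiC-Pro, Juicer, HOMER and build mm10. The deposited values used are counts, whole numbers of contacts per called pair of 10 kb bins, in 1 list per group with no header, replicate column or score. The study's methods describe loops at another resolution, and the caller and threshold behind these lists are not given in the sources used here.

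The 7 genes, the gene list and the rules were chosen with earlier results of these data known. Genes came from GENCODE M21 and promoters and sequence from RefSeq GRCm38.p6, the same build. A loop was assigned to a gene within 100 kb of its TSS, and loop numbers were scaled by the length of the list after adding a pseudocount of 1. Contacts were compared at bin pairs called in both lists by an exact binomial test, with the expected share from all such pairs (scipy 1.17.1, pandas 2.3.3, numpy 2.4.6 and matplotlib 3.10.9 under Python 3.11.15). Strength, used to pick loops, is contacts over the median at the same span and list. Loops named per gene were the strongest with an anchor in the TSS bin, the strongest in all 5 lists and, per list, the strongest without a match within 25 kb in M0[CTR] (for M0[CTR], in any treated list), while bins with most loops, other TSS-bin pairs and pairs with low unadjusted p were picked after their values were seen. The strongest loop near Irf3 called in all lists is not reported here. Pathway genes were named where they passed 1.5-fold or the contact test. Tested on simulated data for IFNG against M0[CTR] with 13149 genes, the contact test called 98 of 100 genes set to 1.5-fold and 100 of 100 set to 2-fold, and 5.99% of its 2037 calls were of unchanged genes. The genes set to a change had at least 5 bin pairs called in both lists, and all of these pairs were changed. In this comparison Irf4 had 2 such pairs and Irf5 had 1, so the rates do not cover these genes. Loop calling was not simulated, so pairs that a change would drop from a list are not covered either.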

Additional observations from a re-analysis of the deposited data

How the results depend on the processing

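Of 141 alternatives run on 25 compared values, 116 kept the call, kept a count within 1.5 times or moved a value by less than its error. Some of these small values changed sign: loops near the 7 genes went to 0.15 for M2[IL-4] against M0[CTR] and to 0.11 for pIL-4 + IFNG against M2p[pIL-4] with a 25 kb window, and with lists cut to equal length to 0.03 for M2p[pIL-4] against M0[CTR] and 0.05 against M2[IL-4]. The number of genes changed in loop number moved most. With a 25 kb window it was 1 (Irf4) for M2[IL-4] against M0[CTR], 2 (Irf4, Irf7) for M2p[pIL-4] against M0[CTR], 1 (Irf7) for M2p[pIL-4] against M2[IL-4], 0 for IFNG against M0[CTR] and 2 (Irf4, Irf7) for pIL-4 + IFNG against M2p[pIL-4], where 28.0, 25.4, 26.0, 28.5 and 24.1% of all genes changed either way, so that 0 to 2 of 6 is near the background. Counting TSS-bin loops only, with at most 7 per list and gene, it was 1, 2, 5, 2 and 3 in these comparisons, but at such low counts a few loops can pass 1.5-fold. With touching bin pairs merged it was 1 (Irf8) for M2p[pIL-4] against M0[CTR] and 3 (Irf2, Irf4, Irf8) for pIL-4 + IFNG against IFNG. Loops of at least 20 contacts gave 1 (Irf2) for M2p[pIL-4] against M2[IL-4], and a pseudocount of 5 gave 0 for IFNG against M0[CTR]. Among these alternatives, shares over all genes were computed for the 25 kb window only, so the counts under the others have no background. Both Irf4 values past 1.5-fold turned direction, to 0.54 for IFNG against M0[CTR] with 25 kb and to 0.0098 for pIL-4 + IFNG against M2p[pIL-4] with merging. Irf4 values short of 1.5-fold turned too, among other cases with merging to -0.41 for M2p[pIL-4] against M0[CTR], -0.55 against M2[IL-4] and 0.96 for pIL-4 + IFNG against IFNG, and with 25 kb to -0.58 and 0.13 in the last 2. The cause was not tested.

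Within 25 kb, loops near the 7 genes gave a log2 ratio of 0.23 for pIL-4 + IFNG against IFNG, and contacts gave -0.0052 for M2[IL-4] against M0[CTR] and 0.040 for IFNG against M0[CTR]. Scaling contacts by list totals, which include loops called in 1 list only, lowered all genes by a constant -0.15, -0.32, -0.16 and -0.32 (log2) for M2[IL-4] and M2p[pIL-4] against M0[CTR], M2p[pIL-4] against M2[IL-4] and pIL-4 + IFNG against IFNG. It gave -0.21, -0.36, -0.16 and -0.34 for the 7 genes and called 4, 6, 3 and 5 of them, with 3266, 8890, 4250 and 8855 of all genes. Relative to that constant their ratios are those reported. Testing each bin pair on its own was added after the data were seen and called 0 of their bin pairs in each comparison by the exact binomial test (1 to 4 at an unadjusted p under 0.05). The priming test called 0 of the genes in the 3 alternatives run.

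No paired analysis was possible because a single list stands for the replicates of a group, and for the same reason no replicate was left out. Irf5, with 1 to 6 loops, and Irf4, with 1 to 7 shared bin pairs, have the widest intervals, and differences inside them were not detectable here.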
